A study of Mus musculus with 34 samples.

Results

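Megalin and cubilin are the endocytic receptors of the proximal tubule, and the 6 genes described here encode the pair and the proteins that let them work. They were chosen by name (*Lrp2*, *Cubn*, *Amn*, *Lrpap1*, *Dab2* and *Clcn5*), out of 23509 genes listed in the count tables, and their mRNA was measured in 34 kidneys of mice on the C57BL6 background. *Pkd2*-KO mice carried floxed *Pkd2* alleles and a Cre recombinase driven by the *Pkhd1* promoter, which is active in kidney tubules and collecting ducts, so that *Pkd2* was deleted in a part of the kidney and cysts formed. These mice were given PBS (n = 11) or 20 mg/kg of RGLS4326 (n = 11), a short anti-miR-17 oligonucleotide, under the skin on postnatal days 10, 11, 12 and 19, and kidneys were taken on day 28. The third group, UNT (n = 12), was untreated and wildtype. Groups and their sizes follow the sample labels, and the number of PBS-treated mice differs from that in the study's own description of this experiment, for a reason not given in the sources used here. The labels spell the genotype Pdk2KO where the protocol writes *Pkd2*-KO. All 6 genes passed the filter on low counts, and each had at least 467 reads in every library.

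Filtered proteins are taken back from the tubular fluid by receptor-mediated endocytosis at the brush border of the proximal tubule. Megalin (*Lrp2*), a giant member of the LDL receptor family, binds albumin, vitamin carrier proteins, hormones and many drugs. Cubilin (*Cubn*) has no membrane span of its own and reaches the surface only with amnionless (*Amn*), and megalin helps to internalise it. The receptor-associated protein (*Lrpap1*) is the chaperone that keeps megalin from binding ligands in the endoplasmic reticulum, Dab2 is the adaptor that links the megalin tail to clathrin, and ClC-5 (*Clcn5*) is the chloride-proton exchanger that supports acidification of endosomes.

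RGLS4326 is directed at the seed of the miR-17 family, so the sequences that bear on the treatment are this seed and its matches in the members' 3′UTRs. The mature miR-17-5p is shown from RefSeq (GRCm38.p6, chr14:115043684-115043706, plus strand) with its seed, bases 2 to 8, in capitals. The 5 other mature miRNAs of the family, miR-20a, miR-20b, miR-93, miR-106a and miR-106b, had the same seed.
mmu-miR-17-5p: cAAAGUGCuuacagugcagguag

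In the 3′UTR of each member's longest coding transcript (GENCODE M21, GRCm38), the letters GCACTTT were found once in *Dab2* and once in *Clcn5*. These letters pair with the seed. The *Dab2* match lay at chr15:6440650-6440656 on the plus strand, at base 1874 of a 3′UTR of 1929 bases. The *Clcn5* match lay at chrX:7154014-7154020 on the minus strand, at base 5709 of 5919. Both are printed with 10 bases on either side and the match in capitals. No match to the seed was found in the annotated 3′UTRs of *Lrp2* (1305 bases), *Cubn* (390 bases), *Amn* (297 bases) and *Lrpap1* (1823 bases). Of 14157 tested genes with a 3′UTR, 21.1% held a match in the same search. That search also counted the letters CACTTTA, so the share for GCACTTT alone is not given.
Dab2 3′UTR: gtcttcttgtGCACTTTtctgtatgca
Clcn5 3′UTR: tgaatggaaaGCACTTTtgacaagtaa

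The 6 genes lie on 5 chromosomes. *Lrp2* (GRCm38, chr2:69424340-69586065, minus strand) has a transcript of 15460 bases in 79 exons, and *Cubn* (chr2:13276338-13491813, minus strand) one of 11262 bases in 67 exons. *Amn* (chr12:111271095-111276426, plus strand) is the shortest, with 1701 bases in 12 exons. *Dab2* is at chr15:6299788-6440712 on the plus strand, *Clcn5* at chrX:7153810-7319358 on the minus strand and *Lrpap1* at chr5:35091501-35105766 on the minus strand. Exons of other genes on the opposite strand overlapped 2.46% of the exonic bases of *Cubn* (Gm13270) and 2.87% of those of *Dab2* (Gm18888). If strand was not used in counting, reads there could be counted as ambiguous or for the wrong gene. In the RefSeq promoters of the members, 8 windows of 300 bases each, the HNF1 half-site GTTAAT was found on either strand in 1, a *Dab2* start, against 7.1% of 32851 promoters. This stretch is printed (chr15:6386661-6386710, plus strand) because it was the match found, with the half-site in capitals. The HNF4 letters CAAAGTCCA were in none of the 8 windows and in 0.5% of all promoters.
Dab2 promoter: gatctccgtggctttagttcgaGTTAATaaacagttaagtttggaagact

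Each library held between 17603122 and 54981992 reads in genes. The share of reads in no gene was 9.84% to 11.3% in UNT, 5.18% to 8.99% in PBS-treated and 4.94% to 12.0% in RGLS4326-treated libraries. The deleted gene, *Pkd2*, was at 220 to 338 CPM (reads per 1000000 scaled reads) in UNT and 98.0 to 215 CPM in PBS-treated mice. These ranges did not overlap, and 19.8% of all genes tested were likewise lower without overlap. In RGLS4326-treated mice *Pkd2* was at 170.0 to 237 CPM, a range that overlapped that of UNT. The numbers of the libraries, as the deposited tables are named, start anew in places, which gives 3 number series with 3 or 4 mice of each group in each, and these were used as candidate batches. The markers of proximal tubule, the labelled organ's most abundant epithelium, were all detected: the summed level of 16 marker genes was 22277 to 33062 CPM in UNT, 2168 to 8867 CPM in PBS-treated and 4317 to 8368 CPM in RGLS4326-treated kidneys. These are whole kidneys, in which fewer cells of a type and less RNA per cell cannot be told apart.

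The first question was how the receptor genes stand in polycystic kidneys. In PBS-treated *Pkd2*-KO mice, 5 of the 6 genes were lower than in UNT mice: megalin 6.03-fold, cubilin 4.37-fold, the chaperone *Lrpap1* 2.50-fold, amnionless 2.46-fold and the adaptor *Dab2* 1.61-fold. *Clcn5* did not pass the test. Among all 15644 genes tested, 39.0% were called lower and 43.1% higher at an adjusted p under 0.05, and 19.8% were lower with no overlap between the groups. All 5 of these genes were lower with no overlap.

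*Lrp2* was at 2089, 2783 and 3286 CPM (lowest, median and highest) in UNT mice and at 219, 428 and 730.0 CPM in PBS-treated mice. The highest PBS-treated mouse was thus far below the lowest UNT mouse. The means were 2710 ± 383 (SD, n = 12) and 449 ± 211 (n = 11), a log2 fold change of -2.59 (SE 0.19). This passed edgeR's quasi-likelihood test with an adjusted p of 6.16e-15 after Benjamini-Hochberg correction over all genes tested. Megalin mRNA in PBS-treated kidneys was 16.6% of that in UNT kidneys. *Cubn* stood at 532, 635 and 863 CPM in UNT and at 72.9, 130 and 230 CPM in PBS-treated mice, again with no overlap. Its means were 649 ± 107 (n = 12) and 148 ± 63.5 (n = 11), and the fitted log2 difference was -2.13 (edgeR adjusted p = 7.63e-14, SE 0.17). Both receptor genes varied widely among PBS-treated mice. The highest *Lrp2* value was 3.33 times the lowest in that group and 1.57 times in UNT, and 5 PBS-treated mice were below 300 CPM and 6 above.

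*Amn*, the membrane anchor of cubilin, had 64.8, 111 and 125 CPM in UNT and 28.02, 43.7 and 54.8 CPM in PBS-treated mice (lowest, median and highest). Here too the groups did not overlap, although the lowest UNT mouse, replicate 10, lay close to the PBS-treated range. The log2 fold change was -1.30 (edgeR adjusted p = 9.81e-13, SE 0.11). *Lrpap1*, the megalin chaperone, was the most even gene of the set in UNT mice, with 490, 541 and 582 CPM and a coefficient of variation of 6.06%. In PBS-treated mice it was at 150, 223 and 272 CPM, below every UNT mouse, and its log2 fold change was -1.32 (edgeR adjusted p = 5.21e-16, SE 0.09).

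*Dab2*, the clathrin adaptor, was lowered less. It stood at 476, 569 and 695 CPM in UNT and at 271, 341 and 421 CPM in PBS-treated mice, and the groups did not overlap. The log2 fold change was -0.69 (edgeR adjusted p = 2.15e-10, SE 0.08). *Dab2* is also known from macrophages and fibroblasts. The summed level of 6 macrophage markers was 96.0 to 167 CPM in UNT and 631 to 1667 CPM in PBS-treated kidneys, with all 6 markers called higher, and that of 7 fibroblast and myofibroblast markers was 446 to 1146 CPM in UNT and 2502 to 5327 CPM in PBS-treated kidneys, with all 7 called higher. Of all genes, 43.1% were called higher in this comparison. The part of these cells in the *Dab2* level was not tested.

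*Clcn5*, the endosomal exchanger, was at 30.4, 38.1 and 61.5 CPM in UNT and at 14.2, 49.98 and 60.6 CPM in PBS-treated mice, and the groups overlapped. Its log2 fold change of 0.20 had a 95% interval from -0.10 to 0.49 (edgeR adjusted p = 0.206). The low value came from PBS replicate 9, and the other PBS-treated mice were at 42.4 CPM or more. Without this mouse the log2 fold change was 0.27 (edgeR adjusted p = 0.0194, SE 0.10). The difference between group means of log2(CPM + 1) was 0.44 in number series 1, 0.45 in series 2 and -0.38 in series 3, the series that holds replicate 9.

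**Figure D1:**
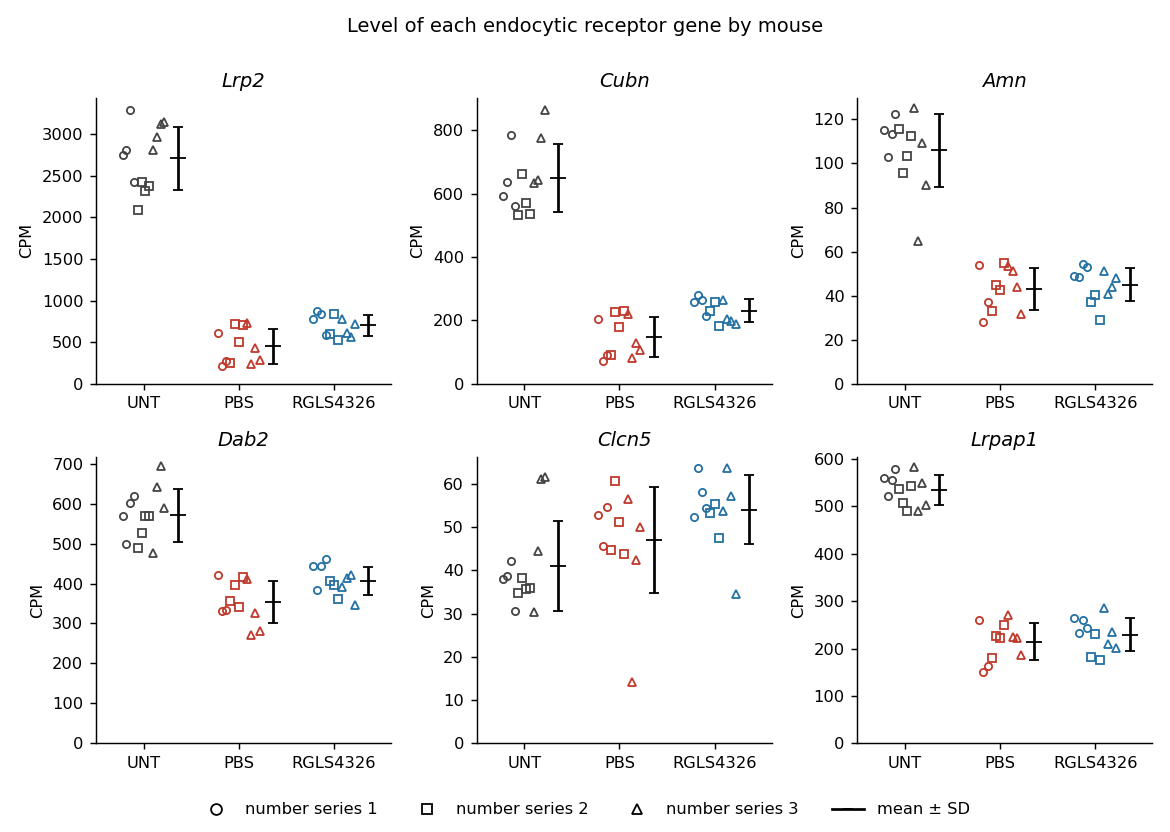
CPM of each gene (vertical axes, from 0) in 12 UNT, 11 PBS-treated and 11 RGLS4326-treated mice. Each symbol is 1 mouse, its shape the number series, and the bars are the mean ± SD. For Lrp2 all PBS-treated mice lie at or below 730.0 CPM and all UNT mice at or above 2089 CPM, whereas for Clcn5 the groups overlap and PBS replicate 9 is at 14.2 CPM.

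For the other 5 genes the direction was the same in each number series. The *Lrp2* difference in mean log2(CPM + 1) between PBS-treated and UNT mice was -3.08, -2.20 and -2.99 in series 1, 2 and 3, and that of *Cubn* was -2.52, -1.74 and -2.51. Series 2 gave the smallest difference for both. An interaction of group and series, tested by edgeR over all genes, was not called for any member (adjusted p from 0.397 to 0.501). It was called for 0 of 15644 genes, with 2547 at an unadjusted p under 0.05, so the members' result is that of all genes.

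Compared between genes per kilobase of the longest transcript, *Lrpap1* and *Lrp2* were the most abundant members in UNT kidneys, at 180 ± 10.9 and 175 ± 24.8 CPM per kilobase (n = 12). Their spreads overlapped, so their order is not resolved. *Dab2* followed at 122 ± 14.03 CPM per kilobase, then *Amn* at 62.3 ± 9.70 and *Cubn* at 57.6 ± 9.46, which did not differ beyond their spread. *Clcn5* was lowest at 4.89 ± 1.23 CPM per kilobase. In PBS-treated kidneys the order was changed. *Dab2* (75.8 ± 11.3 CPM per kilobase, n = 11) and *Lrpap1* (71.9 ± 13.3) led there, and *Lrp2* (29.1 ± 13.6) was level with *Amn* (25.3 ± 5.64) within the spread. *Cubn* (13.2 ± 5.64) and *Clcn5* (5.60 ± 1.47) were lowest. In RGLS4326-treated kidneys *Lrp2* was at 45.3 ± 8.18 CPM per kilobase (n = 11), above *Amn* at 26.5 ± 4.52 and *Cubn* at 20.5 ± 3.17 and below *Lrpap1* at 76.9 ± 11.6 and *Dab2* at 87.2 ± 7.68.

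Whether treatment moved these genes was asked by comparing RGLS4326-treated with PBS-treated mice, which are the same PBS-treated mice as above. Vehicle was the control, and no control oligonucleotide is among the samples used here. Both receptor genes rose, *Lrp2* 1.56-fold and *Cubn* 1.56-fold, and *Dab2* rose 1.15-fold. *Amn*, *Lrpap1* and *Clcn5* did not pass the test. Over all genes tested, 15.3% were called higher and 18.5% lower in this comparison, against 3 of the 6 members higher and none lower. The groups overlapped for every member, as for nearly all genes: 0.0447% were higher and 0.0192% lower without overlap.

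*Lrp2* was at 531, 722 and 874 CPM in RGLS4326-treated mice, against 219, 428 and 730.0 CPM in PBS-treated mice. All 11 treated mice were above the PBS mean and 5 were above the highest PBS-treated mouse, while 7 PBS-treated mice were below the lowest treated mouse. The mean was 701 ± 127 (n = 11), and the log2 fold change was 0.64 (edgeR adjusted p = 0.00984, SE 0.18). *Cubn* was at 181, 230 and 281 CPM in treated mice, and 6 of the 11 were above every PBS-treated mouse. Its log2 fold change was 0.64 (edgeR adjusted p = 0.00654, SE 0.17). Both receptor genes were also more even after treatment. The coefficient of variation of *Lrp2* was 18.0% in treated and 46.9% in PBS-treated mice, and that of *Cubn* was 15.4% and 42.8%; this difference in spread was not tested.

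*Dab2* was at 345, 407 and 461 CPM in treated mice. Of these, 10 were above the PBS mean and 4 above the highest PBS-treated mouse. The log2 fold change was 0.20 (edgeR adjusted p = 0.0405, SE 0.08), close to the threshold. It was no longer called when 1 of 13 mice was left out: RGLS4326 replicates 1, 3, 4, 5, 6 or 9 or PBS replicates 2, 3, 4, 6, 9, 10 or 11, with log2 fold changes from 0.17 to 0.21 and adjusted p from 0.0531 to 0.0828. Macrophage markers summed to 561 to 1101 CPM in treated kidneys, with 4 of 6 called lower than in PBS-treated kidneys. None of the 7 fibroblast markers was called. Of all genes, 18.5% were called lower and 15.3% higher in this comparison.

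*Amn* was at 28.8, 48.1 and 54.5 CPM after treatment, all within the range of the PBS-treated mice. Its log2 fold change was 0.06 with a 95% interval from -0.17 to 0.30 (edgeR adjusted p = 0.68). *Lrpap1* was at 176, 233 and 286 CPM, with a log2 fold change of 0.10 and an interval from -0.08 to 0.27 (adjusted p = 0.393). These intervals do not reach the 0.64 measured for the receptor genes. The receptors' own intervals ran from 0.275 to 1.01 for *Lrp2* and from 0.301 to 0.974 for *Cubn*. That of *Lrp2* overlapped the *Amn* interval. *Clcn5*, which like *Dab2* holds a seed match, was at 34.5, 54.5 and 63.7 CPM, with a log2 fold change of 0.20 and an interval from -0.10 to 0.50 (edgeR adjusted p = 0.287). Without PBS replicate 9 it was 0.12 (edgeR adjusted p = 0.42, SE 0.11).

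Within number series 1, 2 and 3 the treatment difference in mean log2(CPM + 1) was 1.20, 0.36 and 0.80 for *Lrp2*, and 1.19, 0.37 and 0.74 for *Cubn*. It kept its sign in each, although no member was called within any series alone. There edgeR called 54 of 15737 genes in series 1, 4065 of 15944 in series 2 and 0 of 15676 in series 3, where 2826 had an unadjusted p under 0.05. *Amn* was at 0.41, -0.29 and 0.06 and *Lrpap1* at 0.43, -0.16 and 0.04, so their sign was not the same in all series. When the reads assigned to no gene entered the model as a covariate, fitted log2 fold changes were 0.56 for *Lrp2* (edgeR adjusted p = 0.128), 0.58 for *Cubn* (adjusted p = 0.0972) and 0.24 for *Dab2* (adjusted p = 0.12), and no member was called. Of all 15644 genes that fit called 89, against 5280 without the covariate. The part of this share in the treatment difference was not tested.

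**Figure D2:**
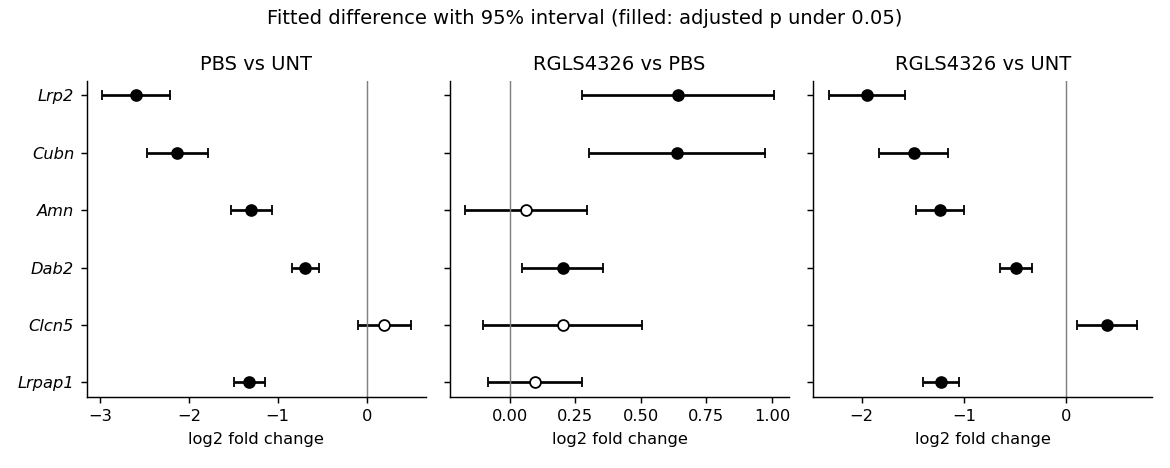
Fitted log2 fold change (horizontal axes, each with its own scale) of the 6 genes in the 3 comparisons, with 95% confidence intervals; filled points passed an adjusted p under 0.05. In PBS vs UNT the points run from -2.59 for Lrp2 to 0.20 for Clcn5. In RGLS4326 vs PBS Lrp2 and Cubn are both at 0.64, Amn is at 0.06 and Lrpap1 at 0.10.

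The treated kidneys stayed below UNT kidneys. In this comparison, which uses the same treated and UNT mice as above, *Lrp2* was 25.9% of the UNT level (log2 fold change -1.95, edgeR adjusted p = 7.31e-12, SE 0.18) and *Cubn* 35.6% (-1.49, adjusted p = 4.37e-10, SE 0.17). *Amn* was at 42.5% and *Lrpap1* at 42.9% of UNT, and *Dab2* at 71.2%. All 5 were called lower with no overlap, in a comparison where 36.9% of all genes were called lower and 16.1% were lower without overlap. *Clcn5* was higher than in UNT mice, by 0.40 on the log2 scale (edgeR adjusted p = 0.0131, SE 0.15), where 40.8% of all genes were called higher. The *Clcn5* ranges overlapped, and within number series 3 the fitted value was 0.08 (SE 0.34, adjusted p = 0.849).

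The balance between members was compared within each mouse, since a ratio of 2 genes in 1 library does not depend on scaling between libraries. The ratio of cubilin to megalin mRNA was 0.240 ± 0.0201 in UNT (n = 12), 0.337 ± 0.0265 in PBS-treated (n = 11) and 0.332 ± 0.0318 in RGLS4326-treated mice (n = 11). All 11 PBS-treated mice had a higher ratio than every UNT mouse, a 1.41-fold difference (two-sided permutation test, adjusted p = 3.27e-05 over 18 tests, p = 2e-05, the smallest that 100000 resamples can give). Megalin therefore fell further than cubilin. Between treated and PBS-treated mice this ratio differed 0.981-fold (permutation p = 0.638), and the sign turned without RGLS4326 replicate 11.

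The coreceptor, the chaperone, the adaptor and the exchanger shifted more against megalin. *Amn* to *Lrp2* was 0.0400 ± 0.00943 in UNT and 0.111 ± 0.0431 in PBS-treated mice, 2.71-fold higher, and *Lrpap1* to *Lrp2* went from 0.201 ± 0.0308 to 0.552 ± 0.195, 2.63-fold higher. *Dab2* to *Lrp2* was 4.10-fold and *Clcn5* to *Lrp2* 7.38-fold higher. In each of these 4 ratios all 11 PBS-treated mice were above every UNT mouse (permutation test, adjusted p = 3.27e-05). The 4 ratios share *Lrp2* as denominator, so their tests are not independent of its fall.

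After treatment these ratios were lower again. Their shared denominator *Lrp2* rose by 0.64 on the log2 scale, while *Amn*, *Lrpap1* and *Clcn5* themselves were not called. *Amn* to *Lrp2* was 0.0651 ± 0.0116 in RGLS4326-treated mice, 0.617 times that of PBS-treated mice (permutation adjusted p = 0.000692), and *Lrpap1* to *Lrp2* was 0.332 ± 0.0527, 0.630 times (adjusted p = 0.000926). All 11 treated mice were below the PBS mean for both. *Dab2* to *Lrp2* was 0.678 times (permutation adjusted p = 0.00965) and *Clcn5* to *Lrp2* 0.698 times the PBS value (adjusted p = 0.0401). The last of these no longer passed without RGLS4326 replicate 1, 2, 3, 6, 8 or 11 or PBS replicate 2, 3, 4 or 11, with log2 differences from -0.51 to -0.43 (permutation adjusted p from 0.0507 to 0.0713) against -0.52 with all mice. *Amn* to *Cubn*, which concerns the 2 parts of the cubilin receptor, was 0.168 ± 0.0416 in UNT, 0.326 ± 0.118 in PBS-treated and 0.197 ± 0.0338 in treated mice. Its 1.92-fold difference between PBS-treated and UNT mice (permutation adjusted p = 3.27e-05) and its fall to 0.629 times after treatment (adjusted p = 0.00048) both passed the test, while treated and UNT mice differed 1.20-fold (adjusted p = 0.063). This last difference passed when RGLS4326 replicate 5, 6 or 7 or UNT replicate 4, 5, 8 or 9 was left out (permutation adjusted p from 0.0374 to 0.0498).

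**Figure D3:**
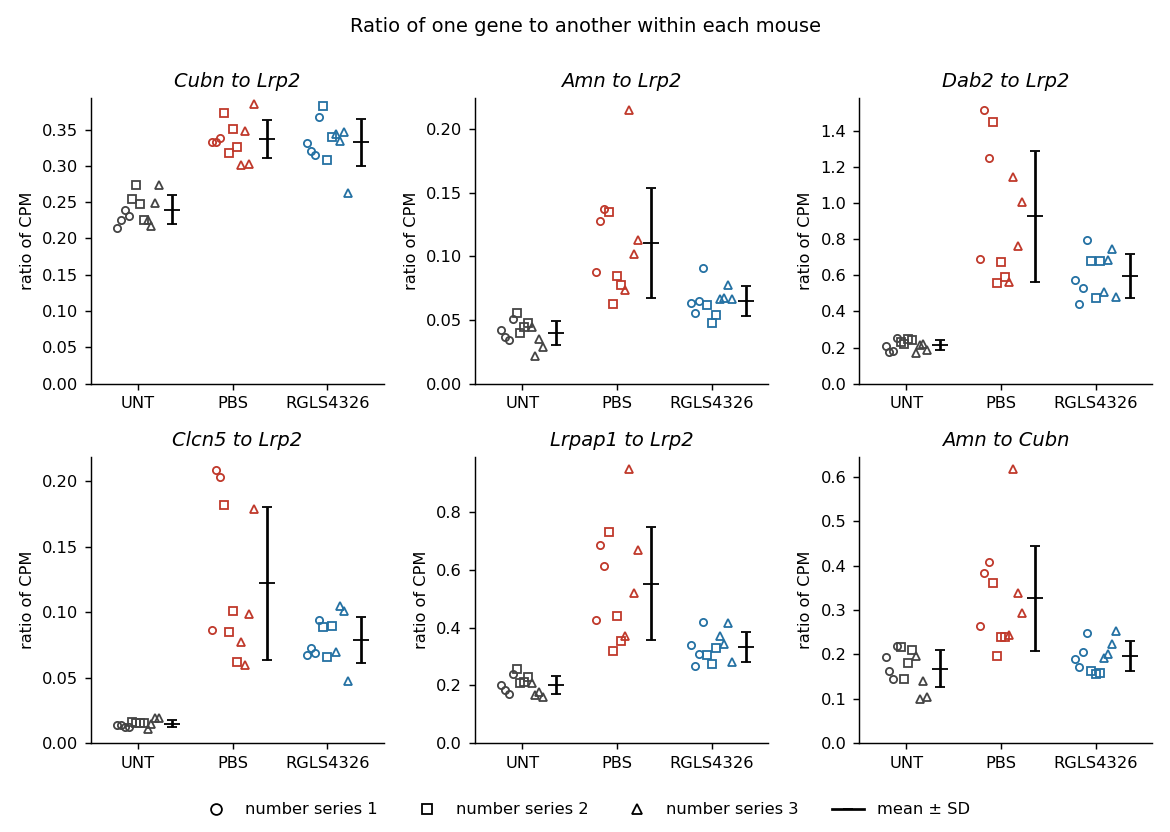
Ratio of the CPM of 2 genes within each mouse (vertical axes, from 0, without unit) by group; symbols are mice, shapes the number series and bars the mean ± SD. Cubn to Lrp2 is near 0.337 in PBS-treated and 0.332 in RGLS4326-treated mice and 0.240 in UNT mice, and the other ratios to Lrp2 spread most widely in PBS-treated mice.

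The members were also set beside the mean of the 16 proximal tubule markers, as the difference in log2(CPM + 1) in each mouse. All 16 markers were called lower in PBS-treated than in UNT mice, where 39.0% of all genes were, with a median log2 fold change of -2.73. Relative to this mean *Lrp2* differed by -0.04 between the groups (two-sided permutation test, p = 0.733), from 2.35 ± 0.15 in UNT to 2.30 ± 0.33 in PBS-treated mice. The sign rested on 1 mouse: without PBS replicate 9 the difference was 0.04 (permutation adjusted p = 0.553). With all mice and the solute carriers left out of the markers, it was -0.25 (permutation adjusted p = 0.0346). *Cubn* was 0.46 higher relative to the markers (permutation adjusted p = 0.0024). *Lrpap1* was higher by 1.35, *Amn* by 1.40, *Dab2* by 1.99 and *Clcn5* by 2.84, with all 11 PBS-treated mice above the UNT mean (adjusted p = 6e-05 over 12 tests).

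After treatment 7 of the 16 markers were called higher and none lower, where 15.3% and 18.5% of all genes were. Their median log2 fold change was 0.47. Relative to the marker mean *Lrp2* was 0.22 higher in treated than in PBS-treated mice (permutation adjusted p = 0.0637) and *Cubn* 0.19 higher (adjusted p = 0.132), neither past the threshold. Without PBS replicate 9 the *Lrp2* value was 0.13 (permutation adjusted p = 0.101) and the *Cubn* value 0.11 (adjusted p = 0.243). That of *Lrp2* was 0.24 or 0.25, past the threshold (permutation adjusted p from 0.0361 to 0.0449), when RGLS4326 replicate 4 or PBS replicate 4, 5, 6 or 8 was left out. *Amn* was 0.48 lower relative to the markers in this comparison (permutation adjusted p = 0.0023) and *Lrpap1* 0.45 lower (adjusted p = 0.00353), in all 11 treated mice against the PBS mean. *Dab2* differed by -0.34 (permutation adjusted p = 0.11) and *Clcn5* by -0.30 (adjusted p = 0.309; -0.47 and 0.0774 without PBS replicate 9).

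Among mice of the same group, *Cubn* followed *Lrp2* closely. Over the 11 PBS-treated mice Pearson's r of log2(CPM + 1) was 0.990 and Spearman's rho 0.955 (permutation tests, adjusted p = 0.0003 and 0.0012 over 15 relations), and r was 0.988 without the 2 mice farthest from the median of *Lrp2*. In UNT mice r was 0.853 and rho 0.902 (n = 12, permutation adjusted p = 0.00165 for both), with 0.826 without the 2 farthest. In RGLS4326-treated mice r was 0.839 and rho 0.818 (n = 11, adjusted p = 0.0161 and 0.0136, permutation tests), with 0.740 without the 2 farthest. The paired values share a library and its depth, and a number series holds too few mice for a value of its own. Centred on the series, the relation passed the test in all 3 groups.

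Of the other 4 members, *Lrpap1* and *Dab2* followed *Lrp2* in PBS-treated mice by both coefficients and *Amn* by Pearson's r only. *Lrpap1* had r = 0.831 and rho = 0.818 (permutation adjusted p = 0.0094 and 0.0136), with r = 0.925 without the 2 farthest mice. *Dab2* had r = 0.789 and rho = 0.709 there (permutation adjusted p = 0.0161 and 0.0466; 0.770 without the 2 farthest), and *Amn* r = 0.740 and rho = 0.682 (adjusted p = 0.03 and 0.0525; 0.914 without them), while *Clcn5* did not pass (r = 0.45 and rho = 0.555, adjusted p = 0.14 and 0.155; 0.313 without them). In UNT mice *Clcn5* was the only one of the 4 to pass, with r = 0.656 and rho = 0.762 (permutation adjusted p = 0.03 and 0.0153; 0.676 without the 2 farthest), but centred on the series this relation no longer passed (r = 0.649, permutation adjusted p = 0.0543). *Amn* had there r = -0.279 (adjusted p = 0.503). In RGLS4326-treated mice none of the 4 passed. Whether a relation differed between groups was not tested.

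**Figure D4:**
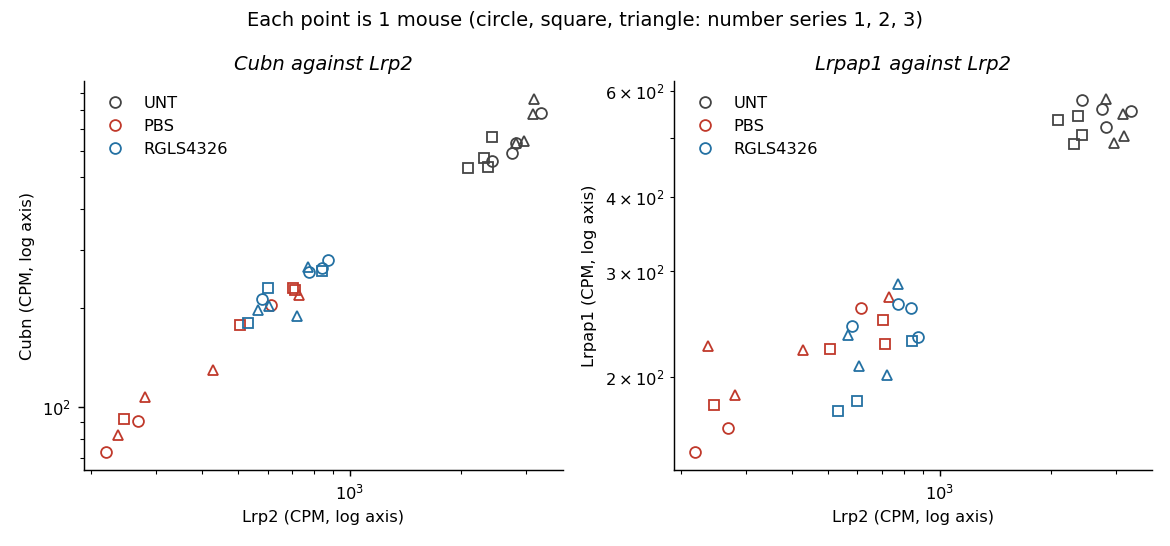
Cubn (left) and Lrpap1 (right) against Lrp2, each in CPM on log axes; each symbol is 1 mouse, its colour the group and its shape the number series. Cubn rises with Lrp2 within each group (r = 0.853 in UNT, 0.990 in PBS and 0.839 in RGLS4326), while for Lrpap1 r is 0.0567 in UNT and 0.831 in PBS-treated mice.

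Over all 34 libraries, with each gene centred on its group means so that group differences play no part, the tested gene most like *Lrp2* was *Cubn* (Pearson's r = 0.960), followed by *F13b* (0.932) and *Mgam* (0.927), a brush border glucosidase. For *Cubn* they were *Lrp2*, *Mgam* (0.952) and *Slc3a1* (0.934), a subunit of the cystine transporter. *Lrpap1* was most like *Cideb* (0.923), *Cryl1* (0.913) and *Qdpr* (0.911), and *Amn* most like *Snx8* (0.873), *2210404O07Rik* (0.850) and *Cideb* (0.842). *Amn* and *Lrpap1* were closer to each other (0.832) than either was to *Lrp2* (0.50 and 0.688). *Dab2* was most like *March6* (0.843), *Lclat1* (0.839) and *Lrpprc* (0.836). These are descriptions of the most alike among 15644 genes, with no test.

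The centred values of *Clcn5* were most like *Pdpr* (0.960), *Atrn* (0.959) and *Tnks* (0.959), and its r with the other members was 0.595 for *Dab2*, 0.512 for *Cubn*, 0.427 for *Lrp2*, 0.004 for *Lrpap1* and -0.200 for *Amn*. PBS replicate 9, where *Clcn5* was lowest, was also low for these 3 genes. They were picked over libraries that include it, so this follows in part from the choice. *Tnks* was at 14.7 CPM in this mouse and at 48.3 to 71.8 CPM in the other PBS-treated mice, and *Pdpr* at 4.30 CPM against 19.9 to 31.6 CPM. *Dab2* was also lower in this mouse, at 271 CPM, than in the other PBS-treated mice (281 to 421 CPM), whereas *Lrp2*, *Cubn*, *Amn* and *Lrpap1* were within the range of the others. Without this mouse, a setting chosen after seeing the data, r was 0.909 with *Pdpr*, 0.900 with *Atrn* and 0.898 with *Tnks* (n = 33), and 0.491 with *Dab2*, 0.429 with *Cubn*, 0.294 with *Lrp2*, 0.107 with *Lrpap1* and -0.098 with *Amn*.

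Around the receptors, coats of clathrin and its adaptors form the endocytic vesicles. Of 12 coat and cargo adaptor genes, 8 were called higher and 3 lower in PBS-treated than in UNT kidneys, where 43.1% and 39.0% of all genes were, with a median log2 fold change of 0.28 against 0.04 over all genes. *Ap2b1*, a subunit of the AP-2 clathrin adaptor, rose from 151 ± 8.65 to 345 ± 53.2 CPM (log2 fold change 1.19, edgeR adjusted p = 2.46e-16, SE 0.08), and *Ap2m1*, which binds cargo in the same adaptor, rose by 0.59 (SE 0.07, adjusted p = 4.49e-09). *Numb*, an adaptor of receptor sorting, fell by 0.25 and the clathrin light chain *Cltb* fell by 0.22. After treatment none of the 12 was called higher and 7 were called lower, where 15.3% and 18.5% of all genes were, among them the AP-2 subunits *Ap2s1* (-0.34, edgeR adjusted p = 0.00925) and *Ap2m1* (-0.29, adjusted p = 0.0063).

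Of 20 genes for partners of the megalin tail and endosomal trafficking, 11 were called lower and 3 higher in PBS-treated kidneys (median -0.14), where 39.0% and 43.1% of all genes were. *Inpp5b*, a phosphoinositide phosphatase related to the Lowe syndrome gene *Ocrl*, went from 127 ± 29.1 to 56.3 ± 8.47 CPM (log2 fold change -1.18, edgeR adjusted p = 5.28e-13, SE 0.10), and the early endosome tether *Eea1* fell by 0.61 (SE 0.10, adjusted p = 6.71e-07). *Gipc1*, which binds the megalin tail, rose by 0.85 and the recycling GTPase *Rab11b* by 0.63. After treatment 5 were called higher and 2 lower, beside 15.3% and 18.5% of all genes. *Eea1* rose by 0.40 (edgeR adjusted p = 0.00547, SE 0.10) and the endosomal adaptor *Appl1* by 0.30, whereas *Gipc1* fell by 0.33 and *Snx17*, a sorting nexin, fell by 0.20.

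Of 16 genes for endosomal acidification, the process in which ClC-5 takes part, 10 were called lower and 4 higher in PBS-treated kidneys (median -0.52), beside 39.0% and 43.1% of all genes. The sodium-proton exchangers *Slc9a3* (72.8 ± 22.9 to 18.9 ± 9.15 CPM, log2 fold change -1.94, SE 0.21, edgeR adjusted p = 2.34e-10) and *Slc9a8* (-1.14, adjusted p = 1.06e-12, SE 0.10) fell furthest. *Ostm1*, a partner of the ClC-7 exchanger, rose by 0.56 and the proton pump subunit *Atp6v0a1* by 0.52. After treatment 2 genes were called higher, *Slc9a3* (0.69, edgeR adjusted p = 0.0147, SE 0.21) and *Clcn4-2* (0.22), an endosomal exchanger close to ClC-5. The other 4 called genes were lower, including *Atp6v0d1* (-0.31) and *Atp6v0a1* (-0.23). Both counts are near the shares of all genes in this comparison, 15.3% higher and 18.5% lower.

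Among 12 tested relatives of megalin in the LDL receptor family, 8 were called higher and 3 lower in PBS-treated kidneys (median 0.38), against 43.1% and 39.0% of all genes. *Lrp1*, a large endocytic receptor of many cell types, rose from 103 ± 20.0 to 311 ± 88.4 CPM (log2 fold change 1.60, edgeR adjusted p = 1.21e-13, SE 0.13), and *Lrp8*, the reelin receptor, rose from 1.84 ± 0.56 to 6.34 ± 0.96 CPM (1.77, adjusted p = 1.31e-14, SE 0.13). The VLDL receptor *Vldlr* fell by 0.73 (SE 0.08, adjusted p = 8.44e-10) and the Wnt coreceptor *Lrp6* fell by 0.39. After treatment *Vldlr* (0.38, edgeR adjusted p = 0.00334, SE 0.09) and *Lrp6* (0.30, adjusted p = 0.0202, SE 0.10) were among 3 genes called higher, and *Lrp10* (-0.31) was the only one of the 12 called lower, against 15.3% and 18.5% of all genes. The macrophage and fibroblast markers given beside *Dab2* moved with *Lrp1* in the comparison with UNT, and their part in it was not tested.

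**Figure D5:**
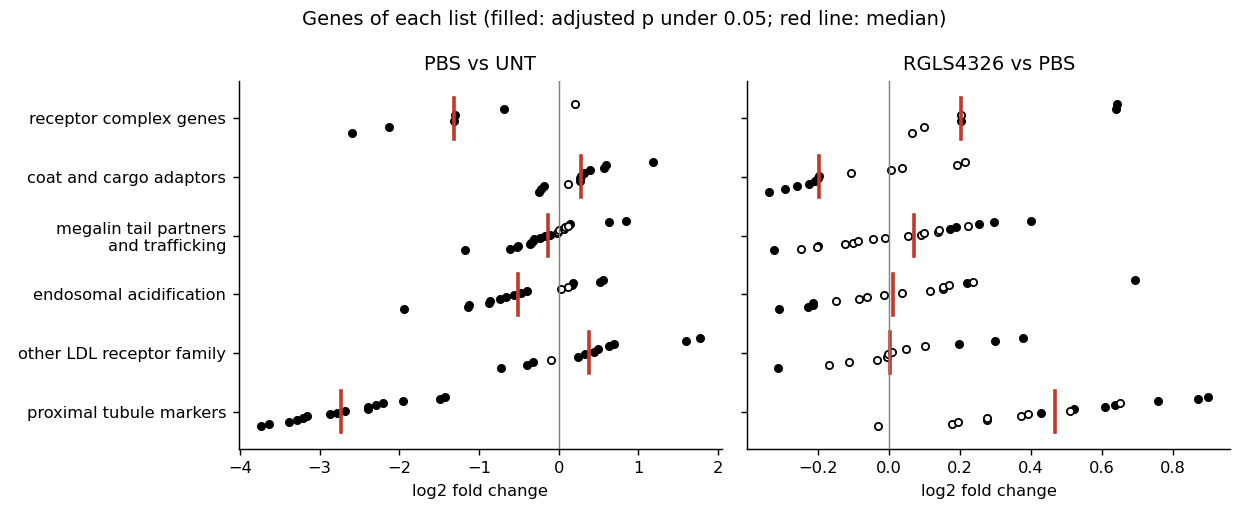
Log2 fold change (horizontal axes, each with its own scale) of every tested gene of 6 lists in PBS vs UNT (left) and RGLS4326 vs PBS (right); filled points passed an adjusted p under 0.05 and red lines are list medians. The medians in PBS vs UNT are -1.31 for the receptor complex genes, 0.28 for coat and cargo adaptors, -0.14 for tail partners and trafficking, -0.52 for acidification, 0.38 for the other LDL receptor family and -2.73 for proximal tubule markers.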

How the data were processed

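Whole-kidney polyA RNA of 34 mice was sequenced from stranded mRNA libraries, and the authors deposited 1 table of raw counts per gene for each mouse. The submitters' processing notes name FastQC 0.11.2, Trim Galore, STAR, SAMtools 1.1, HTSeq 0.6.1, Picard 1.119 and the mouse builds GRCm38 and mm10. The gene annotation and the strand setting of counting are not given in the sources used here. Rows for reads in no gene, ambiguous reads and reads aligned more than once were left out of library sizes. No 2 libraries held identical counts. The labels give 1 mouse per library.

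Counts of all 34 libraries were fitted in 1 model with 3 groups by edgeR 4.0.16 in R 4.3.3 (filterByExpr, TMM scaling, quasi-likelihood F test), and p-values were adjusted by Benjamini-Hochberg over 15644 genes with a threshold of 0.05. The fit was tested on simulated counts. CPM are reads per 1000000 scaled reads. Ratios and correlations used log2(CPM + 1) and two-sided permutation tests with 100000 resamples in scipy 1.17.1 (Python 3.11.15, numpy 2.4.6, pandas 2.3.3), and matplotlib 3.10.9 drew the figures. Ratio levels are plain ratios of CPM, and their fold differences come from means on the log2 scale.

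The members and all gene lists were chosen with earlier results of these data known. Named genes are the members, from each pathway list the 2 called genes with the largest change in each direction in PBS vs UNT and in RGLS4326 vs PBS, and the 3 genes most correlated with each member. A gene that this rule picks is not reported here. The deleted gene, *Pkd2*, is given outside the rule as a check of the labels. Markers and lists came from general knowledge. Alternatives were RLE scaling, no filter on low counts, DESeq2 1.42.0, only the 2 groups compared, number series as a term or alone, reads assigned to no gene as a covariate, a replicate block, each mouse left out, a pseudocount of 0.1, markers without solute carriers and correlations centred on the series.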

Additional observations from a re-analysis of the deposited data

How the results depend on the processing

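The 5 members lower in PBS-treated than in UNT kidneys kept their direction and call under all 44 alternatives; *Lrp2* ranged from -2.98 to -2.11 (log2), *Cubn* from -2.44 to -1.69, *Lrpap1* from -1.57 to -1.23, *Amn* from -1.56 to -1.12 and *Dab2* from -0.90 to -0.54. The rise after treatment was less stable. No member was called (0 of 6) within number series 1, 2 or 3 alone or with reads assigned to no gene as a covariate, which also took the calls over all genes from 5280 to 89; series 1, 2 and 3 alone gave 54, 4065 and 0 calls by edgeR (3421, 6361 and 2826 genes at an unadjusted p under 0.05). Fewer mice enter each series, but series 2 called many genes and no member; the cause was not tested. When each mouse was left out, *Lrp2* ranged from 0.57 to 0.73 and *Cubn* from 0.57 to 0.72, called each time. *Dab2* also missed the call when only the 2 groups were fitted (0.20, adjusted p = 0.0522).

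Signs reversed in 3 fits, none called: *Clcn5* in PBS vs UNT within series 3 (-0.28), and *Amn* (-0.29) and *Lrpap1* (-0.15) after treatment within series 2. *Clcn5* in PBS vs UNT was called within series 1 (0.41) and series 2 (0.44). The *Lrp2* difference from the tubule markers became -0.25 without solute carriers. Centred on the series, *Lrp2* with *Clcn5* in UNT had r = 0.649 (permutation adjusted p = 0.0543), and r changed sign for *Lrp2* with *Lrpap1* in UNT (-0.339) and with *Clcn5* in treated mice (-0.0107); neither had passed. No ratio between members changed its call with a pseudocount of 0.1. With each mouse left out, a setting added after seeing the data, log2 differences ranged from -0.071 to 0.043 for *Lrp2* against the markers in PBS vs UNT and from 0.132 to 0.245 after treatment, and, for ratios, from -0.048 to 0.006 for *Cubn* to *Lrp2* and from -0.601 to -0.427 for *Clcn5* to *Lrp2* after treatment and from 0.206 to 0.307 for *Amn* to *Cubn* in RGLS4326 vs UNT. The other ratios and marker differences kept their sign and call.

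The labels number replicates in every group, but same-numbered mice did not deviate together: 5 of 11, 2 of 11 and 3 of 11 pairs had a correlation over 0.1 (range -0.415 to 0.454). With a replicate block 5 members were called in PBS vs UNT, 3 in RGLS4326 vs PBS and 6 in RGLS4326 vs UNT, as without it. Every member had at least 467 reads per library.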

Other observations

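Genes for proteins that megalin or cubilin bind were measured too, of which 15 of 17 were tested. In PBS-treated kidneys 8 were called higher and 6 lower than in UNT kidneys, near the 43.1% and 39.0% over all genes. *Lcn2*, the iron-siderophore binder lipocalin 2, was at 3.52 ± 0.88 CPM in UNT (n = 12), 1061 ± 396 CPM in PBS-treated (n = 11) and 611 ± 220 CPM in RGLS4326-treated mice (n = 11), with log2 fold changes of 8.23 (SE 0.26, edgeR adjusted p = 6.16e-25) and, after treatment, -0.80 (SE 0.19, adjusted p = 0.005). *Clu*, the chaperone clusterin, fell by 0.71 (SE 0.19, edgeR adjusted p = 0.00682) after treatment, from 3466 ± 1284 to 2112 ± 769 CPM. *Ambp*, the precursor of alpha-1-microglobulin, was at 3.94 ± 1.04, 0.73 ± 0.29 and 1.18 ± 0.68 CPM in UNT, PBS-treated and treated mice, with log2 fold changes of -2.42 (SE 0.24, edgeR adjusted p = 2.04e-11) and 0.69 (SE 0.25, adjusted p = 0.035). *Alb*, albumin, made mainly in liver, fell by 2.72 (SE 0.57, edgeR adjusted p = 5.32e-05) from a low level of 8.89 ± 5.85 CPM. After treatment 1 of the 15 was called higher and 5 lower, beside 15.3% and 18.5% of all genes.

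Other cell type markers moved in both directions. In PBS-treated against UNT kidneys, called higher were 6 of 6 collecting duct principal cell markers (median log2 fold change 1.35), 6 of 6 injured tubule markers (3.23), 1 of 5 thick ascending limb, 1 of 5 intercalated cell, 1 of 6 podocyte and 2 of 6 endothelial markers. Called lower were 4 of 5 thick ascending limb, 4 of 4 distal convoluted tubule, 4 of 5 intercalated cell, 5 of 6 podocyte and 3 of 6 endothelial markers. Over all genes 43.1% were called higher and 39.0% lower. After treatment 4 of 6 principal cell, 2 of 6 injured tubule, 1 of 5 intercalated and 1 of 5 thick ascending limb markers were called lower, and 2 of 5 thick ascending limb, 2 of 4 distal convoluted tubule, 5 of 6 podocyte and 3 of 6 endothelial markers higher, where 18.5% of all genes were called lower and 15.3% higher.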
